A study of Mus musculus with 18 samples.

Results

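Gzma, Gzmb, Prf1, Klrd1, Ccl5 and Nkg7 are genes of cytotoxic lymphocytes, here followed in mouse naive CD4 T cells exposed to IL-6 or IL-27. They are 6 of the 18193 genes that the Affymetrix Mouse Genome 430 2.0 array reads with a probe set carrying a single gene symbol. The genes were listed by name with earlier results of these data in view, in which the WT values of Gzma, Klrd1 and Ccl5 had been shown. Those 3 were thus chosen by their measured WT signals with and without the cytokines. Each of their comparisons that includes a WT group is given as a description with no p. All 7 probe sets of the 6 genes were taken, a pair of them for Prf1 and 1 for each of the others.

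Total RNA came from CD4+CD44-CD62L+CD25- T cells sorted from spleen and lymph nodes of C57BL/6J mice. The cells were wild type (WT) or carried Cd4-Cre with the STAT3 tm1Dlv allele (STAT3KO), called STAT3-deficient below. In that genotype Cre is driven by Cd4 sequences, which act in the T cell lineage, so other cell types of the animal are not made deficient by design. Cells of each genotype spent 3 h in medium alone or with 20 ng/ml of IL-6 or of IL-27. This gives 6 groups of 3 arrays, described as biological triplicates. Age and sex of the animals were not given in the sources used here, nor whether arrays of the same number share an animal.

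Cytotoxic T cells and natural killer (NK) cells kill by releasing granules. Perforin (Prf1) forms pores in the target membrane, the granzymes are serine proteases that enter the target, and the granule membrane protein Nkg7 takes part in release. Klrd1 encodes CD94, which pairs with NKG2 chains into receptors for a non-classical MHC molecule. Ccl5 encodes RANTES, a chemokine that effector T cells and NK cells secrete. IL-6 and IL-27 share the receptor chain gp130 and activate STAT3. Naive CD4 T cells are not known as killers, and the comparisons ask what these cytokines do to such genes within 3 h and how much of it is seen without STAT3.

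Gzma and Gzmb are both granzymes, and only Gzma rose to a clear signal with IL-6, so the 250 bases before each start are shown. They are from the RefSeq promoter table (build GRCm38.p6), which held 4 of the 6 genes. Gzma is on the minus strand at chr13:113100982-113101231 and Gzmb on the minus strand at chr14:56262335-56262584. Each is written 5′ to 3′ in the direction of transcription, and capitals mark matches to 5 motifs searched on both strands.

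Gzma: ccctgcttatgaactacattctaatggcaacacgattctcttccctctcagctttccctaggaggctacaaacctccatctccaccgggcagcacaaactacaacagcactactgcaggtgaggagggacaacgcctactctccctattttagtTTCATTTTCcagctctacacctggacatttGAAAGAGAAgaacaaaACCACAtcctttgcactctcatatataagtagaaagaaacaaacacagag

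Gzmb: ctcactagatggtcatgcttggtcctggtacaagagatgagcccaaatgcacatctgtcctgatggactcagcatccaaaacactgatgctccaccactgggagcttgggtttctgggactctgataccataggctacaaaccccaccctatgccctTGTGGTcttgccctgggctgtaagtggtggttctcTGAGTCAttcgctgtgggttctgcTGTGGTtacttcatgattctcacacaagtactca

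The motifs searched were STAT (TTCNNNGAA), AP-1 (TGANTCA), Runx (TGTGGT), T-box (AGGTGTG) and interferon response (GAAANNGAA), and no matches overlapped in these windows. The Runx letters were found before Gzma once (ACCACA on the strand shown) and before Gzmb at a pair of places, and 14.0% of the 32851 promoters of full length hold them. The interferon response letters were found before Gzma at a pair of places (TTCATTTTC and GAAAGAGAA on the strand shown), and 7.13% of the promoters hold them. The AP-1 letters were found before Gzmb, with 6.75% of promoters holding them. The STAT letters were in neither window. Of the other members with an entry, the Prf1 window held the Runx letters, and the Nkg7 window held the Runx, STAT and T-box letters. The STAT letters are in 7.02% of promoters and the T-box letters in 5.1%. A match is a run of letters and was not tested as a binding site.

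The trimmed mean signal was the same on every array, but the genotypes differed in their dim probe sets. The median signal of an array was 104.4 to 126.8 on the WT arrays and 131.5 to 190.3 on the STAT3-deficient arrays. The background was read from 79 probe sets of odorant, vomeronasal and trace amine receptors, which are genes of sensory neurons. Their 95th percentile was 133.9 to 202.2 on the WT arrays and 206.3 to 317.7 on the STAT3-deficient arrays, so a dim signal on the second set counts for less. Stat3 itself read 2361.4 to 3101.4 in WT medium, 9768.7 to 11002.1 with IL-6 and 7723.9 to 9260.0 with IL-27. The STAT3-deficient arrays read 1109.7 to 1264.7 in medium, 2123.8 to 2540.4 with IL-6 and 3173.5 to 4637.8 with IL-27, each below the WT group of the same treatment. The region its probe set reads relative to the deletion is not given here. All 7 measured markers of naive CD4 T cells, of 9 listed, stood above the background on every array. Of 9 measured CD8 T and NK cell markers, 1 or 2 did so on any array. Cd8b1, a chain of the CD8 coreceptor, did so on all 18, with signals of 433.6 to 1067.9, Cd8a on 4 and Ncr1, a receptor of NK cells, on none. Summed signals of 4 B cell markers were 196.8 to 383.1 on the WT arrays and 711.7 to 1475.8 on the STAT3-deficient arrays, and those of 5 myeloid markers 367.7 to 567.7 and 667.5 to 1133.6. The part of other cells in a difference between the genotypes was not tested. In RNA from a bulk sort, fewer cells of a type and less RNA per cell cannot be told apart.

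A probe set was taken as near background on an array where its signal lay under that array's 95th percentile of the receptor probe sets. Gzmb and Nkg7 were near background on all 18 arrays. Gzma was above background on 3 arrays, which were the 3 WT arrays with IL-6, and near background on the other 15. Ccl5 was near background on all 9 WT arrays and above background on 8 of the 9 STAT3-deficient arrays. Klrd1 was above background on all 18 arrays. The Prf1 probe sets differed, since 1451862_a_at was above background on all 18 arrays and 1450335_at on 9, of which 7 were WT and 2 STAT3-deficient. With the array median as the background level, Gzma stood above it on 8 arrays, Ccl5 on 9 and Prf1 1450335_at on 16, and Gzmb and Nkg7 still on 0.

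**Figure D1:**
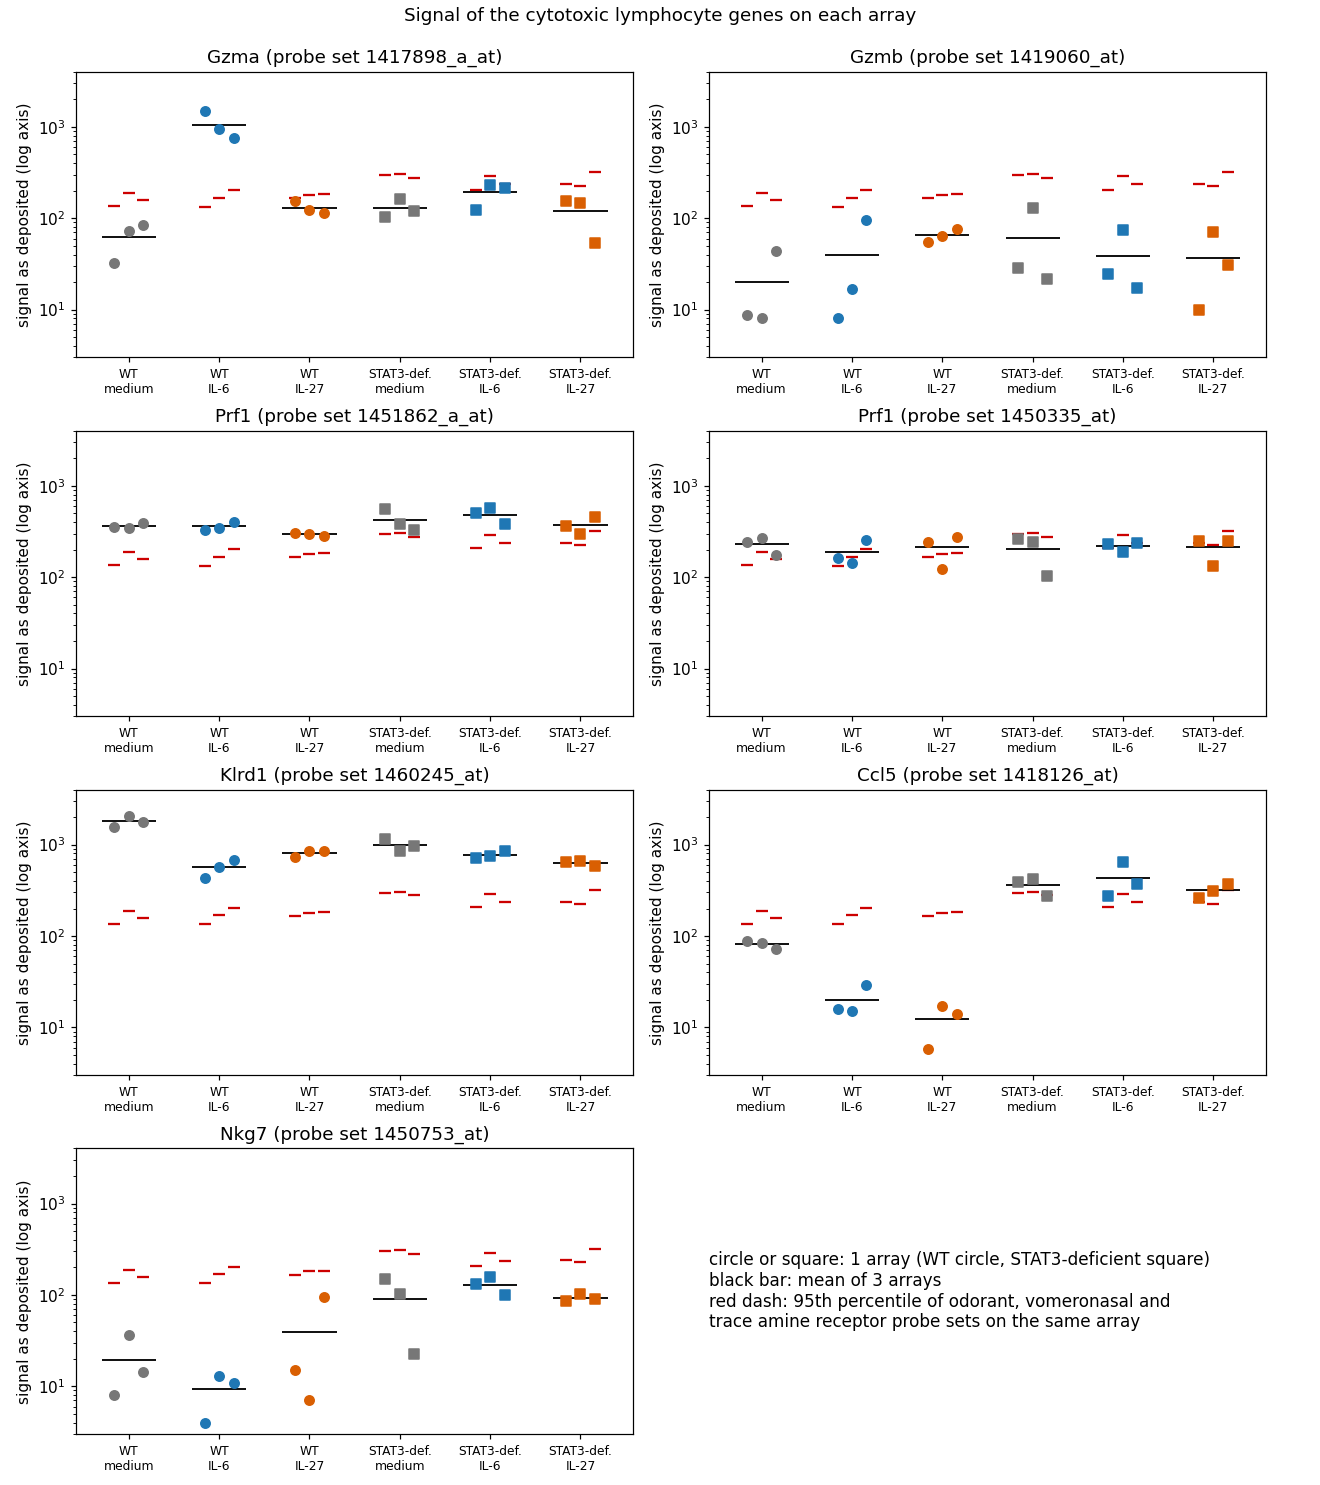
Signal as deposited (log axis) of each of the 7 probe sets in the 6 groups. Each point is 1 array, the black bar is the mean of 3 arrays, and red dashes are the 95th percentile of 79 receptor probe sets on the same array; Gzma rises above the dashes only in WT cells with IL-6, and Gzmb and Nkg7 never do.

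For the fits, signals were put on a log2(signal + 32) scale and then quantile normalised. With the added constant, folds of dim genes are understated. A probe set had to exceed its array's median on at least 3 arrays, which 5 of the 7 probe sets and 4 of the 6 genes did. Gzma passed through 8 arrays, which include the WT arrays with IL-6 where it is high, and Ccl5 only through the 9 STAT3-deficient arrays. Changes are limma fits on all 18 arrays with their standard errors, called at an adjusted p under 0.05 by Benjamini-Hochberg over 26868 probe sets. Comparisons with medium share the same 3 medium arrays within a genotype. The number of arrays limits the precision of each value.

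Gzma, a granzyme with trypsin-like specificity, was the member that IL-6 raised in WT cells. Its signal was 32.3, 72.7 and 84.1 on the 3 arrays in WT medium, 1488.9, 945.3 and 750.3 with IL-6, and 154.8, 123.2 and 114.6 with IL-27. The IL-6 arrays stood far above both other WT groups, and the IL-27 arrays were all above the medium arrays while still near background. The mean signal was 63.0 ± 27.2 (SD, n = 3) in medium and 1061.5 ± 382.8 (SD, n = 3) with IL-6. On the log2 scale the IL-6 change was 3.33 ± 0.33 (SE), or 10.0-fold, measured from a medium level that is itself near background. The IL-27 change was 0.78 ± 0.33 (SE), or 1.71-fold, and the difference between IL-27 and IL-6 was -2.55 ± 0.33 (SE).

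In STAT3-deficient cells Gzma stayed near background throughout. Its signal was 103.8, 164.5 and 121.6 in medium, 123.3, 234.0 and 217.0 with IL-6, and 155.4, 148.3 and 53.9 with IL-27. No array of the genotype reached the lowest WT array with IL-6, and the 3 groups overlapped in their deposited signals. The fitted IL-6 change was 0.64 ± 0.33 (SE), with a 95% interval from -0.06 to 1.33 and a limma adjusted p of 0.701, although the normalised values of the IL-6 and medium arrays did not overlap. The fitted IL-27 change was 0.02 ± 0.33 (SE), with a 95% interval from -0.67 to 0.71 and an adjusted p of 0.992. The difference between IL-27 and IL-6 was -0.62 ± 0.33 (SE), with an interval from -1.31 to 0.07 and an adjusted p of 1. The difference between the genotypes, STAT3-deficient minus WT, was -2.69 ± 0.47 (SE) in the IL-6 effect, or 6.46-fold, and -0.76 ± 0.47 (SE) in the IL-27 effect, with an interval from -1.74 to 0.22. Between the genotypes in medium the difference was 0.30 ± 0.33 (SE), with overlapping arrays.

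On the normalised log2 scale, Gzma in WT cells with IL-6 stood at 10.04 ± 0.46 (SD), apart from every other group. The other groups had means from 6.72 ± 0.42 (SD, WT medium) to 7.65 ± 0.28 (SD, STAT3-deficient cells with IL-6). All arrays of those groups were near background, and the genotypes differ in background, so no order is read among them.

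Gzmb, the granzyme that cleaves after aspartate, gave no signal above background in any group. Its signal was 8.7, 8.0 and 43.9 in WT medium, 8.1, 16.9 and 94.7 with IL-6, and 55.1, 63.5 and 76.2 with IL-27. In STAT3-deficient cells it was 28.4, 130.2 and 21.9 in medium, 24.4, 73.7 and 17.1 with IL-6, and 9.8, 71.3 and 30.5 with IL-27. A single array carried the highest value in most groups, and only the WT groups with IL-27 and in medium did not overlap. Fitted without the filter on dim probe sets, Gzmb was called in none of the 9 comparisons, and its WT change was 0.30 ± 0.47 (SE) with IL-6 (adjusted p = 0.886) and 0.98 ± 0.47 (SE) with IL-27 (adjusted p = 0.473). The interval of the IL-27 change ran from -0.01 to 1.97, so at this signal a change of several fold was not detectable.

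Of the 10 measured granzymes 3 could be tested, Gzma, Gzmk and Gzmm. Gzmk, a further tryptase of T cells, and Gzmm, a granzyme of NK cells, were called in no comparison. With IL-6 in WT cells Gzmk changed by -0.25 ± 0.35 (SE, adjusted p = 0.825) and Gzmm by -0.47 ± 0.42 (SE, adjusted p = 0.701). Gzmk was above background on 7 arrays and Gzmm on 0. The median change of the 3 tested granzymes was -0.25 with IL-6 in WT cells, and that of all 11976 genes was -0.02.

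Prf1 was called in no comparison. Its brighter probe set, 1451862_a_at, read 351.0, 348.8 and 388.2 in WT medium, 328.5, 345.6 and 403.2 with IL-6, and 303.2, 297.8 and 282.2 with IL-27. In STAT3-deficient cells it read 563.3, 385.6 and 330.3 in medium, 499.6, 569.7 and 377.2 with IL-6, and 365.9, 294.8 and 456.6 with IL-27. The WT arrays with IL-27 were all below those of the other WT groups, and the STAT3-deficient groups overlapped. The IL-6 change in WT cells was 0.02 ± 0.19 (SE), with a 95% interval from -0.38 to 0.41 and an adjusted p of 0.986, and the IL-27 change -0.24 ± 0.19 (SE), with an interval from -0.64 to 0.15 and an adjusted p of 0.674. In STAT3-deficient cells the changes were 0.28 ± 0.19 (SE) with IL-6 (adjusted p = 0.822) and -0.05 ± 0.19 (SE) with IL-27 (adjusted p = 0.955).

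The dimmer Prf1 probe set, 1450335_at, gave no call either. It read 245.3, 265.1 and 173.6 in WT medium, 162.9, 142.7 and 253.2 with IL-6, and 241.4, 123.4 and 277.9 with IL-27. In STAT3-deficient cells it read 262.0, 244.6 and 103.1 in medium, 230.7, 188.4 and 235.3 with IL-6, and 250.8, 133.9 and 249.5 with IL-27. All 6 groups overlapped. Its difference between the genotypes in medium was -0.64 ± 0.30 (SE, adjusted p = 0.128), against -0.02 ± 0.19 (SE, adjusted p = 0.945) for the brighter probe set, so the pair disagreed in size there.

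Nkg7 was near background everywhere and higher in STAT3-deficient groups only within that range. It read 8.0, 36.4 and 14.3 in WT medium, 4.0, 13.0 and 10.9 with IL-6, and 14.9, 7.0 and 95.1 with IL-27. In STAT3-deficient cells it read 148.6, 101.5 and 22.3 in medium, 130.5, 157.7 and 100.3 with IL-6, and 84.9, 103.5 and 91.2 with IL-27. The STAT3-deficient values were mostly the larger, as was the background of those arrays. Fitted without the filter, Nkg7 was called in none of the 9 comparisons, and the difference between genotypes in medium was 0.71 ± 0.41 (SE, adjusted p = 0.289).

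Among genes that load, store, release or restrain the granules, 17 were measured and 15 tested. With IL-6 in WT cells 5 rose and none fell, with a median change of 0.09, beside 411 that rose and 508 that fell among all 11976 genes. Lamp2, a lysosomal membrane protein, rose by 1.42 ± 0.18 (SE, adjusted p = 3.39e-05). Serpinb6b, a serpin, rose by 0.99 ± 0.19 (SE, adjusted p = 0.0019) and Serpinb9, the intracellular inhibitor of granzyme B, by 0.83 ± 0.24 (SE, adjusted p = 0.0422). Stx11, a syntaxin needed for granule fusion, rose by 0.74 ± 0.13 (SE, adjusted p = 0.00102), and Rab27a also passed. The calls of Lamp2, Serpinb6b and Stx11 held in all 32 alternative settings, while that of Serpinb9 was lost in 14 and that of Rab27a in 10, for both also without any 1 of the 6 arrays compared. Ctsc, the protease that activates granzymes, changed by -0.02 ± 0.11 (SE, adjusted p = 0.968), Ctsw by -0.19 ± 0.18 (SE, adjusted p = 0.726) and Srgn, the proteoglycan that holds granzymes in the granule, by 0.09 ± 0.10 (SE, adjusted p = 0.779).

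With IL-27 in WT cells 2 of these 15 genes rose and none fell, beside 284 that rose and 188 that fell among all 11976 genes. They were Lamp2 and Serpinb9, the latter by 0.98 ± 0.24 (SE, adjusted p = 0.0234). Both calls were lost without WT medium array 2 or IL-27 array 1, and in 5 alternatives for Lamp2 and 7 for Serpinb9. Compared with IL-6, IL-27 left Fasl and Rab27a lower in WT cells, where 2.94% of all genes were called. The call of Fasl was lost in 9 alternatives. In STAT3-deficient cells limma called 0 of the 15 with IL-6, where 1.78% of all genes were called. With IL-27 there 3 of the 15 rose, Lamp2, Serpinb9 and Tnfsf10, and 4.47% of all genes were called. Serpinb9 rose there by 1.16 ± 0.24 (SE, adjusted p = 0.00585) and Tnfsf10, which encodes the death ligand TRAIL, by 1.17 ± 0.19 (SE, adjusted p = 0.000625). The IL-6 effect was lower in STAT3-deficient cells for Lamp2, at -1.12 ± 0.26 (SE, adjusted p = 0.0263), and for Stx11, at -1.08 ± 0.19 (SE, adjusted p = 0.00259). In that comparison 2.77% of all genes were called. Stx11 held in all 32 alternatives, and Lamp2 was lost in 10, among them the fits without 7 of the arrays in turn. In medium Stx11 was already higher in STAT3-deficient cells, by 1.04 ± 0.13 (SE, adjusted p = 4.35e-05), at 550.1 to 584.1 against 175.6 to 258.6. With IL-6 it read 394.0 to 467.1 there and 382.8 to 410.5 in WT cells.

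Klrd1 behaved in the opposite way to Gzma in WT cells, being highest in medium. It read 1574.7, 2050.0 and 1780.3 in WT medium, 429.4, 573.7 and 686.5 with IL-6, and 728.8, 848.0 and 855.3 with IL-27. Every WT array in medium was above every cytokine array, and every IL-27 array above every IL-6 array. The mean was 1801.7 ± 238.4 (SD, n = 3) in medium, 563.2 ± 128.9 (SD, n = 3) with IL-6 and 810.7 ± 71.0 (SD, n = 3) with IL-27. The log2 change was -1.54 ± 0.16 (SE) with IL-6, 2.90-fold lower, and -1.05 ± 0.16 (SE) with IL-27, 2.08-fold lower, and the level with IL-27 lay 0.48 ± 0.16 (SE) above that with IL-6.

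In STAT3-deficient cells Klrd1 started lower, and its change with IL-6 was smaller. It read 1157.0, 855.3 and 958.0 in medium, 722.0, 746.1 and 850.9 with IL-6, and 645.8, 667.9 and 587.8 with IL-27. The IL-27 arrays lay below all medium arrays, and the normalised IL-6 arrays overlapped with medium. The IL-27 change was -0.63 ± 0.16 (SE), with an interval from -0.96 to -0.29 and an adjusted p of 0.0306, lower on 3 of 3 arrays. That call is fragile: it was lost in 11 of 32 alternative settings, over which the adjusted p ran from 0.0132 to 0.305, among them each fit without STAT3-deficient medium array 1 (0.182) or 3 (0.0633) or without IL-27 array 1 (0.0839), 2 (0.0611) or 3 (0.0774). The IL-6 change was -0.35 ± 0.16 (SE), with an interval from -0.68 to -0.02, an unadjusted p of 0.0396 and an adjusted p of 0.603. The difference between IL-27 and IL-6 was -0.27 ± 0.16 (SE, adjusted p = 1).

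The difference between the genotypes, STAT3-deficient minus WT, was 1.19 ± 0.22 (SE) in the IL-6 effect on Klrd1 and 0.43 ± 0.22 (SE) in the IL-27 effect, with an interval from -0.04 to 0.90. In medium it was -0.80 ± 0.16 (SE), or 1.74-fold, with no overlap of arrays. This call was lost with the marker covariate described for Ccl5, although the size stayed between -1.39 and -0.69 over all 32 alternatives. Cd8b1 differed in the same direction in that comparison, by -0.74 ± 0.18 (SE, adjusted p = 0.0083), with signals of 433.6 to 634.3 against 749.8 to 883.0 in WT medium, a call lost without STAT3-deficient medium array 1 and with that covariate (-0.22, adjusted p = 0.871). Tyrobp, a signalling adaptor of NK and myeloid cells, differed by 1.51 ± 0.42 (SE) the other way and was near background on all 18 arrays. Of 5 tested CD8 T and NK cell markers these were the 1 lower and the 1 higher, with a list median of 0.05, where 25.6% of all genes were called. Cd8a, above background on 4 arrays, read 196.5 to 246.9 in STAT3-deficient medium and 98.3 to 187.3 in WT medium. The part of CD8 T or NK cells in the Klrd1 difference was not tested. With each array centred on its median, that difference was -1.39, beside a shift of all genes of -0.40, and with the values as deposited all genes shifted by 0.14. Over the 6 groups Klrd1 was highest in WT medium, at 10.79 ± 0.20 (SD) on the log2 scale. STAT3-deficient medium (9.99 ± 0.24), WT IL-27 (9.74 ± 0.12) and STAT3-deficient IL-6 (9.64 ± 0.14) overlapped in sequence, and STAT3-deficient IL-27 (9.36 ± 0.10) overlapped with WT IL-6 (9.25 ± 0.30), which was lowest.

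Markers of naive CD4 T cells also fell in WT cells with IL-6. Of 7 tested naive CD4 markers 5 fell and none rose, with a median change of -0.65, beside 508 of all 11976 genes that fell. Among them were Cd4, which fell by 0.92 ± 0.18 (SE, adjusted p = 0.00215) and Il7r, the receptor for IL-7, which fell by 0.65 ± 0.09 (SE, adjusted p = 9.63e-05). With IL-27, 3 of the 7 fell in WT cells (Ccr7, Cd3g and Il7r; median change -0.41, and 188 of all genes fell) and 2 in STAT3-deficient cells (Ccr7 and Cd3g; median change -0.30, and 167 of all genes fell). In STAT3-deficient cells with IL-6 limma called none of the 7, where only 17 of all 11976 genes fell and 1.78% were called. Of 11 measured lectin-like receptors of NK cells and partners 4 were tested. Klrd1, chosen by its WT values, was called with IL-6 and with IL-27 in WT cells, so those calls are a description. It was also called with IL-27 in STAT3-deficient cells, the fragile call above. The shares of all genes called there were 7.67%, 3.94% and 4.47%. No other tested member of that list was called with a cytokine. Klrc1, which encodes a partner chain of CD94, was near background on all 18 arrays. Klrk1, which encodes NKG2D, changed by -0.08 ± 0.41 (SE, adjusted p = 0.963) with IL-6 and by 0.81 ± 0.41 (SE, adjusted p = 0.435) with IL-27 in WT cells. In medium it read 211.5 to 393.3 in STAT3-deficient cells and 12.3 to 97.3 in WT cells. The WT medium signals were all below their array's median, so that difference is a description. It was 1.56 on the log2 scale and 0.69 with the marker covariate.

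Ccl5 was higher in STAT3-deficient cells on every array, and within WT cells it was lower with either cytokine at signals near background. It read 88.4, 84.9 and 71.3 in WT medium, 15.9, 15.0 and 29.1 with IL-6, and 5.8, 17.1 and 13.9 with IL-27. In STAT3-deficient cells it read 386.5, 421.4 and 276.8 in medium, 274.8, 638.9 and 372.2 with IL-6, and 259.5, 311.2 and 373.8 with IL-27. Every STAT3-deficient array was above every WT array, and within WT every medium array was above every cytokine array, although all of those signals were near background. The WT change was -1.24 ± 0.27 (SE) with IL-6 and -1.50 ± 0.27 (SE) with IL-27, differences between values that are all under the background level. In STAT3-deficient cells it was 0.33 ± 0.27 (SE) with IL-6, with an interval from -0.23 to 0.90 and an adjusted p of 0.871, and -0.04 ± 0.27 (SE) with IL-27, with an interval from -0.60 to 0.53 and an adjusted p of 0.977. Between the cytokines there the difference was -0.37 ± 0.27 (SE, adjusted p = 1).

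The genotype difference of the IL-6 effect on Ccl5 was 1.57 ± 0.38 (SE) and that of the IL-27 effect 1.47 ± 0.38 (SE), both resting on the fall within the dim WT values. The call in the IL-6 effect was lost in 14 of 32 alternatives, among them the fits without WT medium array 1 or 2, WT IL-6 array 1 or 2, STAT3-deficient medium array 1 or 3, or STAT3-deficient IL-6 array 2 or 3. In medium Ccl5 was 1.36 ± 0.27 (SE) higher in STAT3-deficient cells, 2.57-fold on this scale. B cell markers and the myeloid marker Lyz2 were higher in the same arrays. In medium all 3 tested B cell markers were higher in STAT3-deficient cells, where 25.6% of all genes were called in either direction. Cd79b, a chain of the B cell receptor, read 154.3 to 385.1 in STAT3-deficient medium and 6.0 to 14.0 in WT medium, and Lyz2, a lysozyme of myeloid cells, 284.9 to 574.2 and 45.3 to 105.2. Both passed the filter through the STAT3-deficient arrays, so these values, and the count of B cell markers that includes Cd79b, are descriptions. The myeloid list as a whole did not shift that way: of its 3 tested genes 1 was higher and 1, Cd68, lower, with a median of -0.17 and Cd68 near background on all 18 arrays. Within groups of 3 arrays, the order in Ccl5 was that of the summed myeloid markers in all 3 STAT3-deficient groups and in WT cells with IL-6, and that of the B cell markers in WT cells with IL-27 alone. In STAT3-deficient medium and with IL-6 there, the background percentile of the arrays had that order too, which it had in no other group. Both WT matches are among Ccl5 signals near background, and an order of 3 arrays was not tested. With the mean log2 level of these markers as a covariate the Ccl5 difference was 0.65, and 0 members were called between the genotypes in medium. The markers differ between the genotypes themselves, so what goes with them and what goes with the genotype cannot be told apart.

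**Figure D2:**
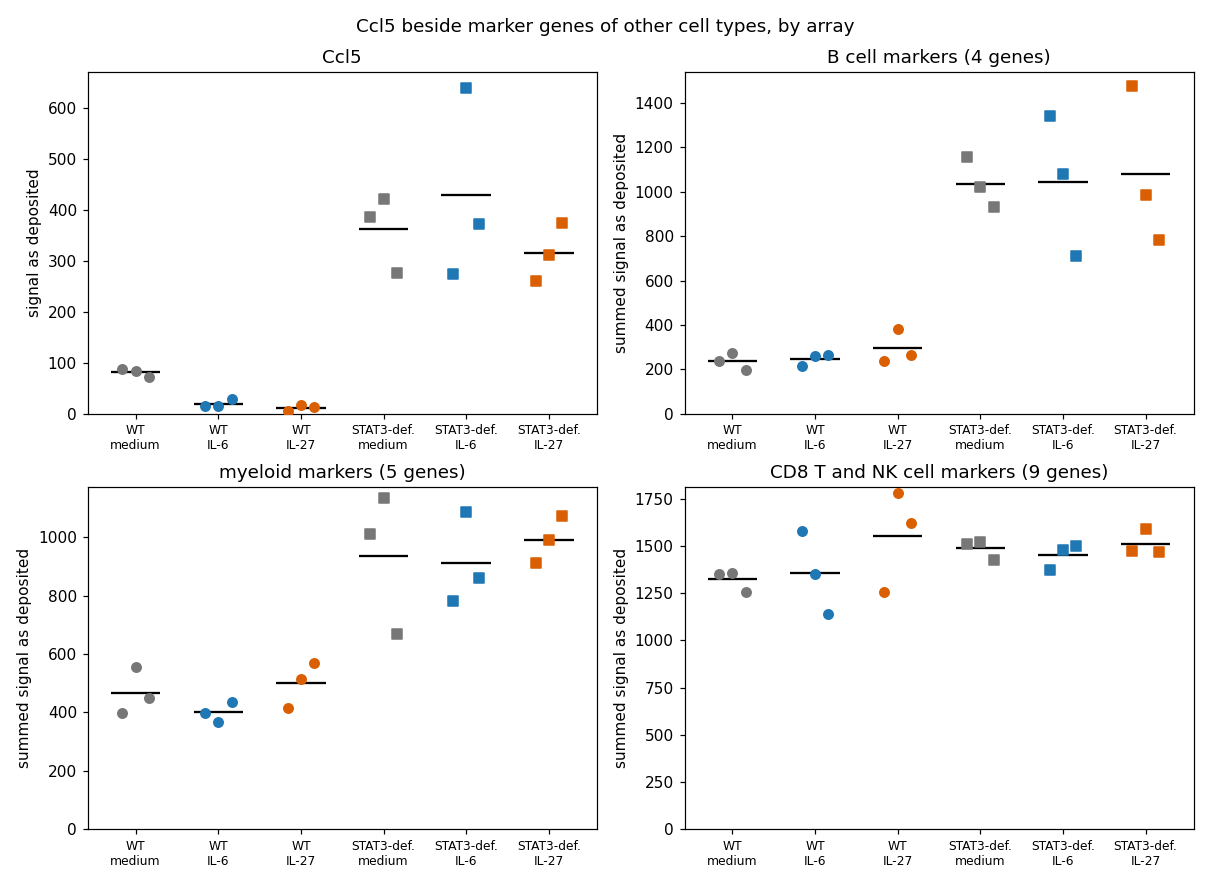
Ccl5 signal and the summed signals of 4 B cell, 5 myeloid and 9 CD8 T and NK cell markers, as deposited, on each array of the 6 groups. Points are arrays and bars are means of 3 arrays; Ccl5 and the B cell and myeloid sums are higher on STAT3-deficient arrays, while the CD8 T and NK cell sums run from 1141.5 to 1780.3 over both genotypes.

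Of the 7 measured chemokines and receptors around Ccl5, 2 were tested. Ccl4, a CC chemokine like Ccl5, changed by 0.32 ± 0.28 (SE, adjusted p = 0.694) with IL-6 in WT cells and was 0.97 ± 0.28 (SE, adjusted p = 0.0202) higher in STAT3-deficient medium, a call lost without WT medium array 1 or 3 or STAT3-deficient medium array 1 or 2. With the marker covariate that difference was 0.14 (adjusted p = 0.952). Ifng, the interferon of type 1 helper and cytotoxic cells, was near background on all 18 arrays, with signals of 17.7 to 51.6 in WT medium and 15.9 to 62.1 with IL-6.

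Counted by genes, 3 of the 4 tested members were called with IL-6 in WT cells (1 higher, 2 lower), where 7.67% of 11976 genes were called. With IL-27 in WT cells 2 of 4 were called, both lower (3.94% of genes), and between IL-27 and IL-6 there 1 of 4 (2.94%). In STAT3-deficient cells limma called 0 of 4 with IL-6 (1 at an unadjusted p under 0.05; 1.78% of genes called), 1 of 4 with IL-27 (4.47%) and 0 of 4 between the cytokines (0 at an unadjusted p under 0.05; 0.301%). The IL-6 effect differed between genotypes for 3 of 4 (2.77% of genes). For the IL-27 effect 0 of 4 differed (1 at an unadjusted p under 0.05; 0.0167%). In medium 2 of 4 differed between genotypes (25.6% of genes). With the marker covariate the last count was 0. In the WT and genotype comparisons the called genes are the 3 whose WT values chose them, so these shares are a description. Ccl5 is counted in both comparisons of a cytokine with medium in WT cells, in the IL-6 effect and in medium. It passed the filter only through the 9 STAT3-deficient arrays, and its WT signals were all near background. Only the counts within STAT3-deficient cells compare groups not used in the choice. Their fits still share the normalisation and the estimate of spread with the WT arrays. In a limma fit of only the arrays compared, the Klrd1 call with IL-27 there was lost (adjusted p = 0.117), which leaves a count of 0.

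**Figure D3:**
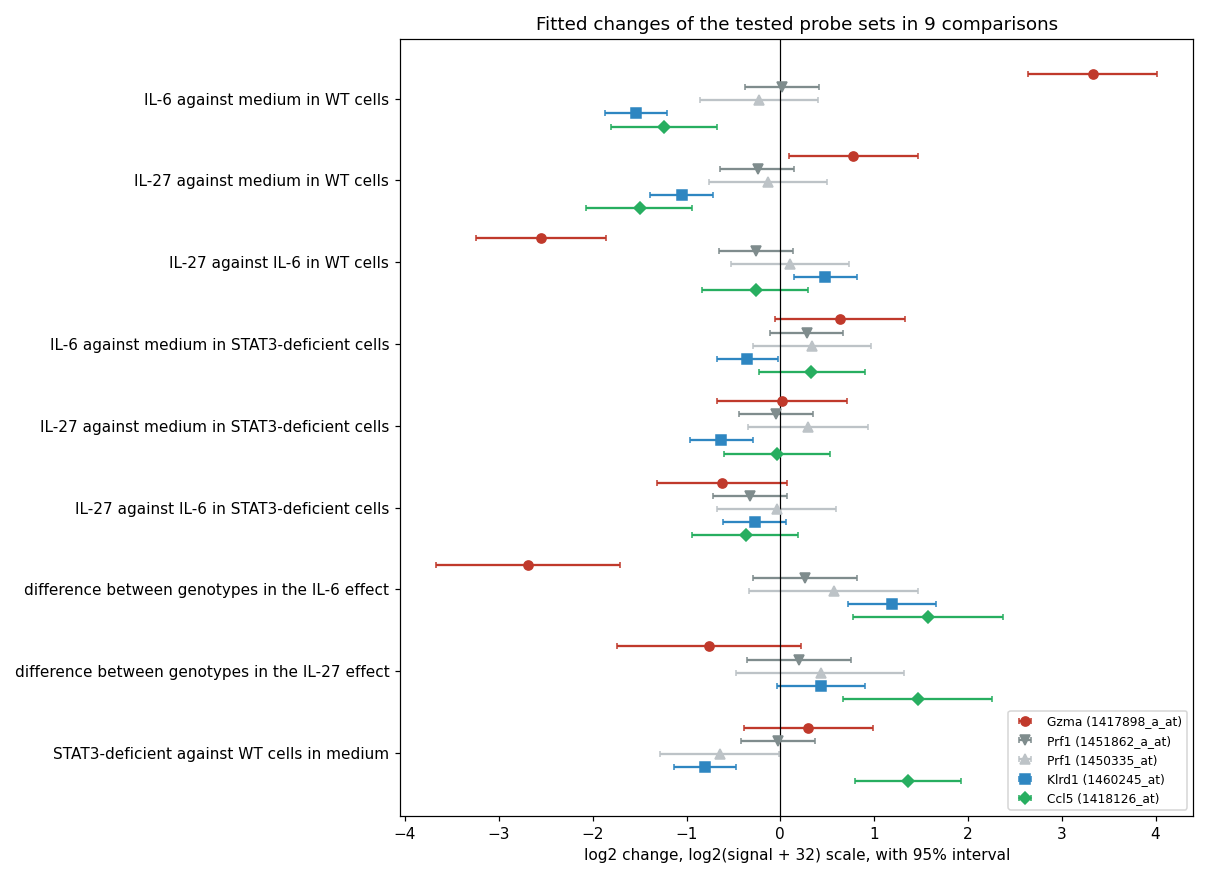
Fitted log2 changes (log2(signal + 32) scale) with 95% intervals for the 5 tested probe sets in 9 comparisons. Gzma lies at 3.33 with IL-6 in WT cells and at 0.64 in STAT3-deficient cells, Klrd1 at -1.54 and -0.35, and both Prf1 probe sets are called in none.

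Transcription factors of the cytotoxic program were measured for 9 of 10 genes and all 9 were tested. With IL-6 in WT cells 2 rose and none fell, beside 411 that rose and 508 that fell among all 11976 genes. Runx3, a Runt factor of the CD8 lineage, rose by 1.36 ± 0.21 (SE, adjusted p = 0.000288) and Prdm1, which encodes Blimp-1, by 0.94 ± 0.16 (SE, adjusted p = 0.000662). Tbx21, which encodes T-bet, was higher with IL-27 in WT cells by 2.03 ± 0.27 (SE) and changed by 0.56 ± 0.27 (SE) with IL-6. It was near background in WT medium at 28.4 to 73.0. Its medium signals in both genotypes were all below their array's median, and it passed the filter through arrays with a cytokine. Its rises are thus descriptions with no p. Eomes changed by -0.38 ± 0.35 (SE, adjusted p = 0.718) with IL-6 and was above background on 2 arrays.

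In STAT3-deficient cells Tbx21 was higher than in medium by 1.60 ± 0.27 (SE) with IL-6 and by 2.92 ± 0.27 (SE) with IL-27, again as a description. It read 89.6 to 94.2 in medium, all near background, and 202.7 to 450.7 with IL-6, in part near background. With IL-27 it read 523.2 to 982.5, above background. Runx3 changed by 0.57 ± 0.21 (SE, adjusted p = 0.428) with IL-6 and rose by 0.92 ± 0.21 (SE, adjusted p = 0.0165) with IL-27, a call lost without medium array 3 or IL-27 array 1 or 2, with only the arrays compared (adjusted p = 0.0963) and with the marker covariate (0.62, adjusted p = 0.146). In the same cells Prdm1 changed by 0.42 ± 0.16 (SE, adjusted p = 0.445) with IL-6. No factor of the list passed the test of a genotype difference in the IL-6 effect by limma, where 2.77% of all genes were called. There Runx3 stood at -0.79 ± 0.30 (SE, adjusted p = 0.266), Prdm1 at -0.52 ± 0.23 (SE, adjusted p = 0.368) and Tbx21 at 1.04 ± 0.38 (SE, adjusted p = 0.239).

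The genes whose pattern over the 18 arrays was most like that of Gzma were Igfbp4 and Sbno2 (Pearson r of 0.93 each), Tcp11l2 (0.92), and Pgs1 and Pik3c2a (0.91 each). Igfbp4 averaged 400.2 in WT medium, 2702.6 with IL-6 and 541.3 with IL-27, and 430.7 to 544.9 over the STAT3-deficient groups. Sbno2 averaged 362.7, 2226.9 and 779.4 in the WT groups. All 5 were highest in WT cells with IL-6. Most like Klrd1 were Srpk1 (0.95), Acp5 (0.93) and Sdhaf1 (0.92), which were highest in WT medium, and most like Ccl5 were Tgfb1 (0.96), Parvg (0.95) and Pou6f1 (0.95), which were higher in every STAT3-deficient group than in any WT group. The arrays share their groups, so these correlations describe likeness and carry no p.

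**Figure D4:**
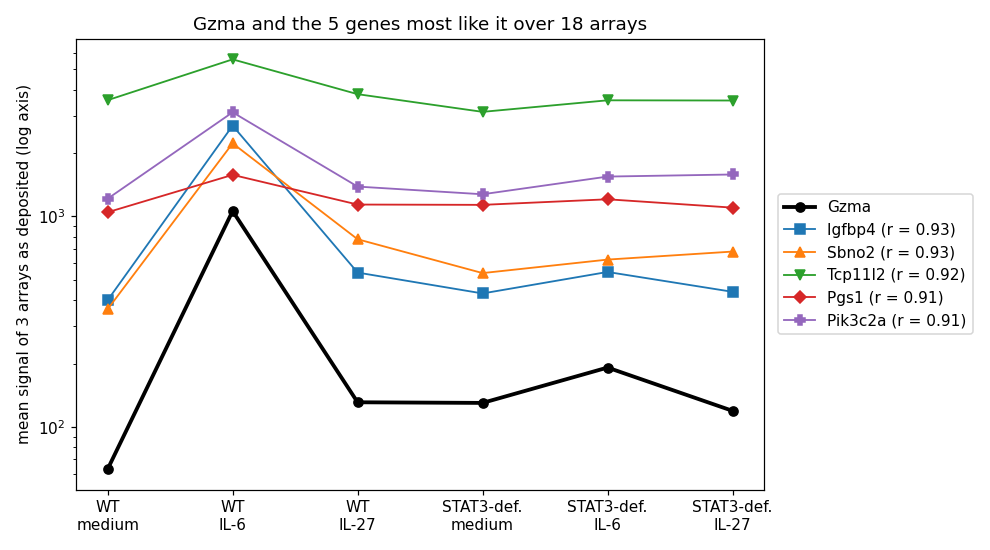
Mean signal of 3 arrays as deposited (log axis) in the 6 groups for Gzma and the 5 genes with the highest Pearson correlation to it over 18 arrays. Lines join the groups of a gene for the eye only; every line peaks in WT cells with IL-6, where Gzma averages 1061.5.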

How the data were processed

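Total RNA of sorted naive CD4 T cells was measured on 18 mouse arrays in 6 groups of 3. Per the submitters' processing notes the authors used GCOS, and its algorithm, version and annotation were not given in the sources used here. Deposited values have the unit intensity: linear signals per probe set. Trimming 2% at each end leaves a mean of 500.0 on all arrays.

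Of 45101 probe sets, 64 controls were left out, and 34945 carried 1 symbol in the platform annotation. Array medians differed 1.82-fold, so log2(signal + 32) values were quantile normalised. Probe sets above their array's median on at least 3 arrays (26868) entered a group-mean model in limma 3.58.1 (R 4.3.3, variance trend, 12 residual degrees of freedom, two-sided). A gene was read from its tested probe set with the highest mean. Scripts were tested on simulated data.

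The members, lists and tests were chosen with earlier results of these data known. Named were all probe sets of the 6 genes, a short list of pathway genes, and up to 4 called genes per list and comparison. Same-numbered arrays had residual correlations from -0.0108 to 0.208 (median 0.131) within WT and from -0.147 to 0.337 (median 0.0822) within STAT3-deficient cells. For differently numbered arrays they ran from -0.212 to 0.0954 (median -0.0537) and from -0.507 to 0.29 (median -0.032), which was lower. The main fit did not take the numbers as pairs, and a block by number was among the alternatives. Alternatives covered scaling, constant, filter, variance model, weights, arrays, block and a marker covariate.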

Additional observations from a re-analysis of the deposited data

Results flagged for a closer look

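The effect of IL-6 differed between the genotypes, by the interaction term of the fit, for 3 members. For Gzma the log2 difference, STAT3-deficient minus WT, was -2.69, from 3.33 in WT to 0.64 in STAT3-deficient cells. For Klrd1 it was 1.19, from -1.54 to -0.35. For Ccl5 it was 1.57, from -1.24 to 0.33, with all 9 WT signals near background. The WT values of these genes were known when they were chosen and enter each of these differences, so they are descriptions. The call of Ccl5 was lost in 14 of 32 alternatives.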

How the results depend on the processing

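Of 288 recounts of called members, 274 stayed within 1.5 times the reported count and 14 were lower. With IL-27 in WT cells the count was 1 with only the arrays compared. Between IL-27 and IL-6 in WT cells it was 0 with a filter of at least 9 arrays, which removes Gzma from the test. With IL-27 in STAT3-deficient cells it was 0 with median centring, without a variance trend, with array weights, with only the arrays compared, with the marker covariate and without the 3 arrays numbered 3 of that genotype, and 0 to 1 with single arrays left out. Between genotypes in medium it was 0 with the marker covariate. Changes of sign were seen only for small changes with no call. Gzma with IL-27 in STAT3-deficient cells was -0.17 as deposited and -0.23 to 0.45 with single arrays left out. Prf1 with IL-6 in WT cells was -0.02 as deposited, -0.05 with median centring, -0.01 with the marker covariate and -0.05 to 0.06 with single arrays left out. Prf1 with IL-27 in STAT3-deficient cells was 0.02 with median centring and -0.20 to 0.17 with single arrays left out, and the genotype difference in its IL-27 effect was -0.09 without the 3 arrays numbered 3. Prf1 between genotypes in medium was 0.19 as deposited, 0.13 without those 3 arrays and -0.24 to 0.13 with single arrays left out. Ccl5 with IL-27 in STAT3-deficient cells was 0.01 with median centring and -0.20 to 0.10 with single arrays left out. The cause was not tested.

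The sample number as a replicate block, within or across genotypes, changed no count: members called with IL-6 in WT cells stayed at 3 and with IL-27 in STAT3-deficient cells at 1. List genes with a call were put through the same alternatives, a choice made after seeing the data. With signals this close to background for Gzmb, Nkg7 and WT Ccl5, small changes were not detectable.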
